A study of Rattus norvegicus with 16 samples.

Results

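Levels of 8 two-pore potassium channel genes, Kcnk1, Kcnk2, Kcnk3, Kcnk4, Kcnk9, Kcnk10, Kcnk12 and Kcnk13, were followed in 4 brain regions of rats given sevoflurane or propofol. The 8 genes were taken by their symbols in the platform annotation from 15037 genes with a named probe, using the brightest probe of a gene, and each of the 8 had 1 probe. The study measured RNA on 16 microarrays, 1 for each combination of 4 treatments and 4 regions. It asked how the 2 anesthetics alter gene expression in regions where anesthesia changes neuronal activity.

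All animals were male Wistar rats aged 8 to 10 weeks that breathed 40% oxygen at 6 L/min. In the sevoflurane group, rats inhaled the volatile anesthetic sevoflurane at 2.4%, and the O2 group, its control, had oxygen without an anesthetic. The propofol group received the intravenous anesthetic propofol as a bolus of 10 mg/kg followed by 36 mg/kg/hr. Its control group received Intralipos, a lipid emulsion at 10%, by the same bolus and infusion. The labels give 60 min for the treatments. The regions were cut by laser from Nissl-stained sections of 30 µm: the lateral habenula (LHb) and medial habenula (MHb), which lie in the epithalamus, and, in the hindbrain, the solitary nucleus (Sol) and medial vestibular nucleus (MVe). The labels do not tie a sample to a rat, so the 4 regions of a treatment may come from the same animals, and whether tissue was pooled is not given in the sources used here.

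Two-pore channels carry the potassium leak that holds neurons and glia near their resting potential. Each subunit contains a pair of pore-forming segments, and a channel is built from a pair of subunits. Volatile anesthetics open several of them, among them TREK and TASK channels, and inhibit THIK channels, as known from recordings on expressed channels. The 8 genes fall into 4 subfamilies. Kcnk1 encodes a weak inward rectifier of the TWIK group. Kcnk2, Kcnk10 and Kcnk4 encode the stretch- and lipid-sensitive channels of the TREK and TRAAK group. Kcnk3 and Kcnk9 encode the acid-sensitive TASK channels, and Kcnk12 and Kcnk13 the THIK channels, of which Kcnk12 gives little current on its own.

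The values are deposited log2 signals, so a difference of 1 is a doubling of signal. The probes named as negative controls on the array had a median of 4.79, and their upper quartile was 5.94 to 6.35 on sevoflurane and O2 arrays and 5.65 to 6.07 on propofol and Intralipos arrays. This upper quartile serves below as a yardstick of background; it was chosen after the values had been seen. The mean of all probes was 7.20 to 7.21 on the 8 sevoflurane and O2 arrays and 6.97 to 6.99 on the 8 propofol and Intralipos arrays. The arrays thus form 2 sets, and levels of sevoflurane and propofol samples cannot be told apart from the set. The Sol and MHb labels matched their markers: the median over Dbh, Th and Calcr averaged 10.88 in Sol and 3.62 to 3.82 in the other 3 regions, and that of 6 MHb markers averaged 14.45 in MHb and 5.32 to 9.65 elsewhere. The 3 LHb markers did not single out LHb, although their median averaged 14.04 in LHb and 12.45 in MHb. Htr2c was higher in LHb than in MHb (mean 16.51 against 12.45), but Gpr151 was lower (14.04 against 16.3). Sst averaged 6.28 in LHb and 10.87 in Sol. MVe had no marker list of its own.

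Because Kcnk2 differed most between regions and its probe is annotated to 2 transcripts, the windows of 250 bases before its 2 annotated starts are shown, from RefSeq on rat assembly GRCr8, minus strand, 5′ to 3′, with each CG pair in capitals. The inner window lies at chr13:103438643-103438892 and the outer at chr13:103494687-103494936, 56044 bases apart.
Kcnk2 inner start: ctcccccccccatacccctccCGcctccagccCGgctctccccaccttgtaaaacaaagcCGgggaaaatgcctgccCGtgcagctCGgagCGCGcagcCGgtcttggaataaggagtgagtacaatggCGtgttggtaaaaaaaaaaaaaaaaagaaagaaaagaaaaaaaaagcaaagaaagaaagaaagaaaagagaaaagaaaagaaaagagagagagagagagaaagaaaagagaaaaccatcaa
Kcnk2 outer start: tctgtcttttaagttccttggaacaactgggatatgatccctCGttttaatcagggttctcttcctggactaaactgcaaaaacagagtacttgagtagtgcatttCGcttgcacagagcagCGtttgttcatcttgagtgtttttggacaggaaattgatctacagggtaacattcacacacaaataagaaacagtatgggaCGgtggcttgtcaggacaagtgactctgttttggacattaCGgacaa
The inner window holds 9 CG pairs, a number reached by 38.5% of 33469 windows of the same length, and the outer holds 5, which equals the median over all windows and is reached by 55.3%. Neither window holds GGGCGG on either strand, which 30.5% of windows do. The arrays do not separate RNA from the 2 starts. Windows for Kcnk4 and Kcnk13 were also found, so that 3 of the 8 genes matched the table.

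Signals of the 8 genes differed among regions, by unequal amounts and for some genes near background. In a limma fit with treatment and region as terms, all 8 differed among the 4 regions by the moderated F test, with adjusted p-values between 3.58e-14 for Kcnk9 and 0.00619 for Kcnk13. Of all genes tested, 54.1% did so. Kcnk3, Kcnk13 and most Kcnk4 values lay below the yardstick of background. Kcnk13 lost its call in sevoflurane and O2 arrays (adjusted p = 0.0821), propofol and Intralipos arrays (0.162) and O2 and Intralipos arrays (0.0896) alone. Kcnk3 and Kcnk4 lost theirs in some of these subsets, as given below. Kcnk2, Kcnk9 and Kcnk1 showed differences of many fold, and the other 5 genes differed by less than 2 on the log2 scale between their highest and lowest region. The 4 treatments stand in for replicates of a region here, and the p-values describe the spread between these 16 arrays only. In dissected tissue, fewer cells of a type and less RNA per cell cannot be told apart.

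**Figure D1:**
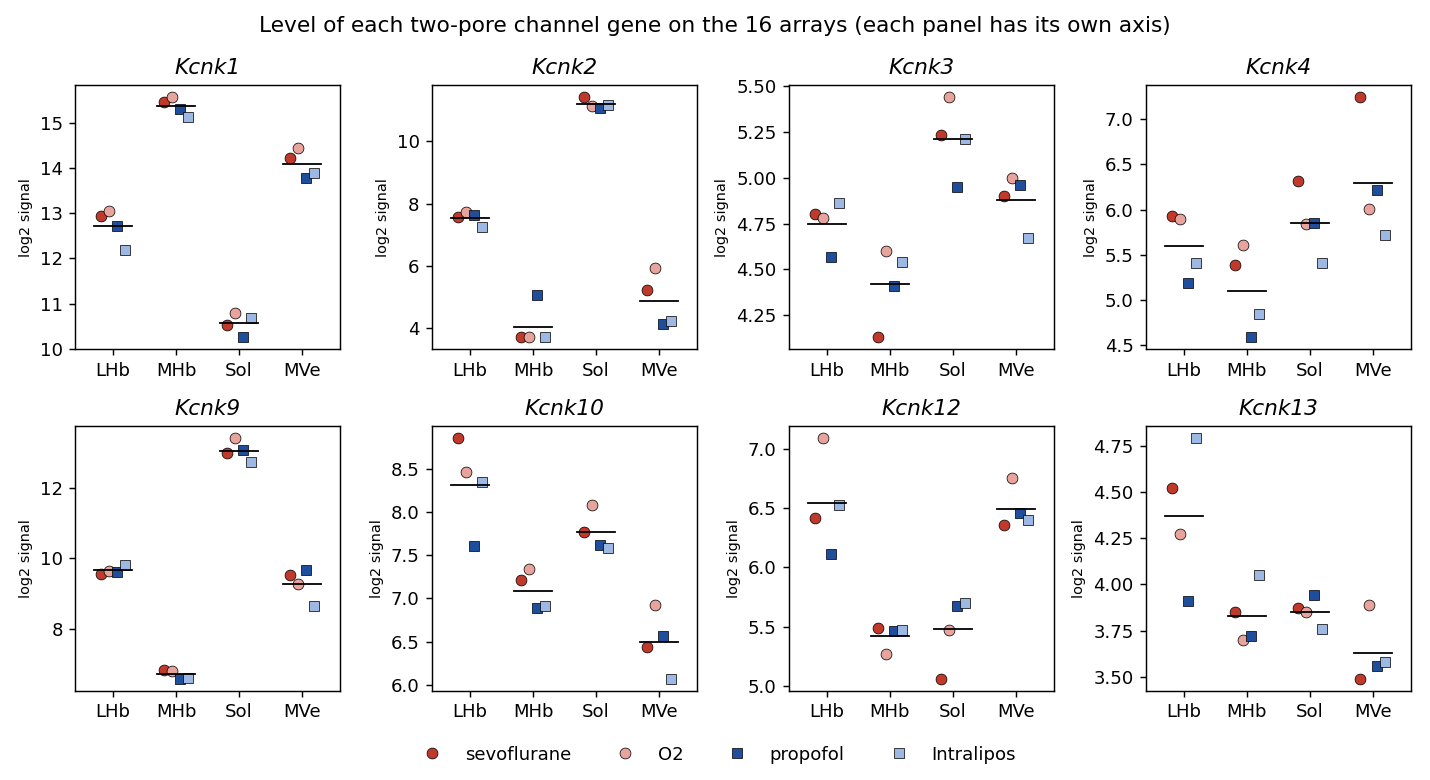
Log2 signal of the 8 two-pore channel genes (one panel each) by region, one point per array and coloured by treatment, with the mean of the 4 arrays of a region. Kcnk2 and Kcnk9 are highest in Sol, Kcnk1 is highest in MHb (15.14 to 15.58), and Kcnk3 and Kcnk13 stay within the range of the negative-control probes in all 16 arrays.

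Kcnk1, the TWIK gene, was highest in MHb and lowest in Sol. In MHb it read 15.46 with sevoflurane, 15.58 with O2, 15.31 with propofol and 15.14 with Intralipos. In Sol it read 10.52 with sevoflurane, 10.79 with O2, 10.25 with propofol and 10.68 with Intralipos. All MHb arrays therefore lay far above all Sol arrays, whatever the treatment. MVe followed MHb, with 14.22 under sevoflurane, 14.44 under O2, 13.79 under propofol and 13.89 under Intralipos. LHb came next, with 12.93 under sevoflurane, 13.06 under O2, 12.72 under propofol and 12.19 under Intralipos. No 2 regions overlapped. The mean level was 15.37 ± 0.19 in MHb, 14.09 ± 0.30 in MVe, 12.72 ± 0.38 in LHb and 10.56 ± 0.24 in Sol (SD, n = 4 treatments each).

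Each step of that order passed the test. Kcnk1 was higher in MHb than in MVe by 1.29 ± 0.16 (log2, moderated SE; limma, adjusted p = 1.93e-06), in MVe than in LHb by 1.36 (adjusted p = 2.47e-06) and in LHb than in Sol by 2.16 (adjusted p = 6.6e-09). MHb exceeded Sol by 4.81 ± 0.16, or 28.1-fold. Within the array sets this difference was 4.86 in sevoflurane and O2 arrays and 4.77 in propofol and Intralipos arrays. In this order habenular and hindbrain nuclei alternate.

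Kcnk2 encodes TREK-1, a channel opened by volatile anesthetics, stretch and fatty acids, and known in rodent brain from neurons and astrocytes. It was high in Sol, intermediate in LHb, and within the background range in MVe and MHb. In Sol its level was 11.43 with sevoflurane, 11.14 with O2, 11.06 with propofol and 11.16 with Intralipos. In LHb it was 7.55 with sevoflurane, 7.72 with O2, 7.64 with propofol and 7.23 with Intralipos. Neither region overlapped any other. In MVe the gene read 5.21 with sevoflurane, 5.92 with O2, 4.13 with propofol and 4.21 with Intralipos. In MHb it read 3.69 with sevoflurane, 3.70 with O2, 5.04 with propofol and 3.71 with Intralipos. None of these last 8 values passed the upper quartile of the negative probes on its array, and the 2 regions overlapped.

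Sol exceeded LHb for Kcnk2 by 3.66 ± 0.32 (log2; limma, adjusted p = 9.54e-08), or 12.7-fold, and LHb exceeded MVe by 2.66 (adjusted p = 4.8e-06). Across the hindbrain, Sol minus MVe was 6.33 (adjusted p = 4.47e-11), with 5.72 in sevoflurane and O2 arrays and 6.94 in propofol and Intralipos arrays. Across the habenula, LHb minus MHb was 3.50 (adjusted p = 1.05e-07). Since MVe and MHb lay in the background range, these differences set no ratio of RNA. MHb minus MVe came to -0.83 (adjusted p = 0.0474), but it was -1.87 in sevoflurane and O2 arrays and 0.20 in propofol and Intralipos arrays, and MHb was above MVe in 1 of 4 treatments. That call was lost in most fits that left out 1 array, with an adjusted p of 0.259 without the O2 array of MVe.

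Kcnk10 encodes TREK-2, the closest relative of TREK-1, and had a different regional order. It was highest in LHb, at 8.86 with sevoflurane, 8.47 with O2, 7.61 with propofol and 8.35 with Intralipos. Sol followed, at 7.77 with sevoflurane, 8.08 with O2, 7.62 with propofol and 7.59 with Intralipos. The propofol array of LHb lay inside the Sol range, so the 2 regions overlapped. MHb read 7.22, 7.34, 6.89 and 6.91 with sevoflurane, O2, propofol and Intralipos, and MVe, the lowest region, 6.44, 6.93, 6.56 and 6.07 in the same order. All 16 values were above the upper quartile of the negative probes. LHb exceeded MVe by 1.82 ± 0.19 (log2; limma, adjusted p = 5.8e-07), or 3.54-fold, with 1.98 in sevoflurane and O2 arrays and 1.67 in propofol and Intralipos arrays. The neighbouring steps were small: 0.55 between LHb and Sol (adjusted p = 0.0355), 0.68 between Sol and MHb (adjusted p = 0.00673) and 0.59 between MHb and MVe (adjusted p = 0.0156). The first was lost without the sevoflurane array of LHb (adjusted p = 0.176) and the last without the Intralipos array of MVe (adjusted p = 0.0693), and no step passed within an array set alone.

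Kcnk4 encodes TRAAK, a stretch- and lipid-gated channel that in rodents is largely neuronal. Its signal was low. In MVe it read 7.25 with sevoflurane, 6.01 with O2, 6.22 with propofol and 5.72 with Intralipos, and in Sol 6.32, 5.84, 5.85 and 5.41 in the same order. In LHb it read 5.93 with sevoflurane, 5.89 with O2, 5.18 with propofol and 5.41 with Intralipos, and in MHb 5.38, 5.61, 4.58 and 4.84. Of the 16 values, 2 in MVe and 2 in Sol passed the upper quartile of the negative probes, and each region overlapped its neighbour. MVe exceeded MHb by 1.20 ± 0.20 (log2; limma, adjusted p = 9.36e-05), and no pair of neighbours in the order MVe, Sol, LHb and MHb differed past the threshold (adjusted p = 0.101, 0.434 and 0.0792). The test over regions passed in propofol and Intralipos arrays alone (adjusted p = 0.011) and not in sevoflurane and O2 arrays alone (adjusted p = 0.0697). It did not pass in O2 and Intralipos arrays alone either (adjusted p = 0.187), where MHb minus MVe was -0.64 (adjusted p = 0.0589).

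Kcnk9 encodes TASK-3, an acid-sensitive leak channel with strong expression in many rodent brainstem neurons. It was highest in Sol, at 13.00 with sevoflurane, 13.43 with O2, 13.09 with propofol and 12.75 with Intralipos. It was lowest in MHb, at 6.82 with sevoflurane, 6.79 with O2, 6.57 with propofol and 6.60 with Intralipos. LHb and MVe lay between these and overlapped each other. LHb read 9.56 with sevoflurane, 9.65 with O2, 9.61 with propofol and 9.80 with Intralipos, and MVe 9.53, 9.26, 9.66 and 8.64 in the same order. All 16 values passed the yardstick of background, those of MHb by the least.

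Kcnk9 in Sol exceeded LHb by 3.41 ± 0.18 (log2; limma, adjusted p = 1.16e-10), or 10.7-fold. LHb and MVe did not differ past the threshold, at 0.38 (adjusted p = 0.144), and MVe exceeded MHb by 2.58 (adjusted p = 1.51e-09), or 5.98-fold. MHb minus Sol reached -6.38 (adjusted p = 5.7e-15), with -6.42 in sevoflurane and O2 arrays and -6.34 in propofol and Intralipos arrays. Like Kcnk2, the gene was therefore higher in Sol than in MVe, and higher in LHb than in MHb. Sol minus MVe was 3.80 for Kcnk9 (adjusted p = 2.29e-11), and LHb minus MHb was 2.96 (adjusted p = 4.71e-10).

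Kcnk3 encodes TASK-1, the other acid-sensitive channel, and did not rise above the yardstick in any of the 16 arrays. Its values ran from 4.95 to 5.44 in Sol, from 4.67 to 5.0 in MVe, from 4.57 to 4.86 in LHb and from 4.13 to 4.60 in MHb. Sol exceeded MHb by 0.78 ± 0.15 (log2; limma, adjusted p = 0.000277), with no overlap between them. No pair of neighbours differed past the threshold. The test over regions did not pass in propofol and Intralipos arrays alone (adjusted p = 0.228) or in O2 and Intralipos arrays alone (adjusted p = 0.0976).

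Among the THIK genes, Kcnk12 fell into a higher and a lower pair of regions. LHb read 6.42 with sevoflurane, 7.09 with O2, 6.11 with propofol and 6.53 with Intralipos, and MVe 6.36, 6.75, 6.46 and 6.40 in the same order. Sol read 5.06 with sevoflurane, 5.47 with O2, 5.67 with propofol and 5.70 with Intralipos, and MHb 5.49, 5.27, 5.46 and 5.47. All 8 arrays of LHb and MVe passed the yardstick of background, against 1 of the 4 Sol arrays and 0 of the 4 MHb arrays, and the 2 pairs did not overlap. MVe exceeded Sol by 1.01 ± 0.18 (log2, limma, adjusted p = 0.000259). Since most Sol arrays lay in the background range, this difference sets no ratio of RNA. As Sol minus MVe, the value was -1.28 in sevoflurane and O2 arrays and -0.74 in propofol and Intralipos arrays. The 0.05 between LHb and MVe and the 0.05 between Sol and MHb were inside the spread (adjusted p = 0.896 and 0.864).

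Kcnk13 encodes THIK-1, a channel of rodent microglia and of some neurons that halothane inhibits. It stayed below the yardstick in all 16 arrays. Values ran from 3.91 to 4.79 in LHb, 3.76 to 3.94 in Sol, 3.70 to 4.05 in MHb and 3.49 to 3.89 in MVe. LHb exceeded MVe by 0.74 ± 0.17 (log2; limma, adjusted p = 0.00259). LHb exceeded Sol by 0.52 (adjusted p = 0.0305) with overlapping arrays, and neither array set alone gave a call over the regions (adjusted p = 0.0821 in sevoflurane and O2 arrays and 0.162 in propofol and Intralipos arrays). The microglial markers, 8 of 8 measured, had medians averaging 8.47 in LHb and 9.38 in Sol, and 7.45 in both MHb and MVe.

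Set against each other, the paired nuclei separated most of the genes. In habenula (the mean of LHb and MHb) minus hindbrain (the mean of Sol and MVe), 3 of the 8 genes were higher and 4 lower, where 38.1% of all genes were called, 18.3% higher and 19.8% lower. The higher ones were Kcnk1 at 1.73 ± 0.11 (adjusted p = 4.38e-10), Kcnk10 at 0.57 ± 0.13 (adjusted p = 0.00182) and Kcnk13 at 0.36 ± 0.12 (adjusted p = 0.0229), which was lost without the Intralipos array of LHb (adjusted p = 0.0627). The lower ones were Kcnk9 at -3.00 ± 0.13 (adjusted p = 1.82e-12), Kcnk2 at -2.25 ± 0.23 (adjusted p = 2.44e-07), Kcnk4 at -0.72 ± 0.14 (adjusted p = 0.00052) and Kcnk3 at -0.46 ± 0.10 (adjusted p = 0.00178). Kcnk12 stood at 0.00 ± 0.13 (adjusted p = 0.987), since 1 nucleus of each division was high and the other low. The contrast averages unlike nuclei for other genes too. LHb was below MVe for Kcnk1 (-1.36) and above it for Kcnk2 (2.66) and, not past the threshold, for Kcnk9 (0.38). MHb was below Sol for Kcnk10 (-0.68). For these genes the division does not describe each nucleus. The median difference of the 8 genes was -0.23, and that of all genes was -0.01.

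Within the array sets, Kcnk1, Kcnk2 and Kcnk9 kept both direction and call in that contrast. Kcnk2 was -2.76 in sevoflurane and O2 arrays and -1.74 in propofol and Intralipos arrays. Kcnk3 and Kcnk10 passed in sevoflurane and O2 arrays only (adjusted p = 0.016 and 0.0145, against 0.156 and 0.109 in the other set), and Kcnk4 in propofol and Intralipos arrays only (adjusted p = 0.00721, against 0.0505). Kcnk13 passed in neither (adjusted p = 0.174 and 0.156). In the control arrays alone (O2 and Intralipos), Kcnk4 was at -0.31 (adjusted p = 0.215), Kcnk3 at -0.38 (adjusted p = 0.116) and Kcnk13 at 0.43 (adjusted p = 0.119). Only 8 arrays entered each of these fits.

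In LHb minus MHb, 5 of the 8 genes were higher and 1 lower, with 28.5% of all genes called, 14.1% higher and 14.4% lower. Besides Kcnk2 and Kcnk9, the higher ones were Kcnk10 (1.23, adjusted p = 4.27e-05), Kcnk12 (1.11, adjusted p = 0.00012) and Kcnk13 (0.54, adjusted p = 0.0207), and the lower one was Kcnk1 (-2.65, adjusted p = 2.61e-10). The Kcnk13 call was lost in 7 of 24 alternatives, among them without the Intralipos array of LHb (0.41, adjusted p = 0.106). In Sol minus MVe, 3 were higher and 2 lower, with 35.2% of all genes called, 19.3% higher and 16% lower. These were Kcnk2, Kcnk9 and Kcnk10 (1.27, adjusted p = 2.72e-05), against Kcnk1 (-3.53, adjusted p = 6.57e-12) and Kcnk12 (-1.01, adjusted p = 0.000259). Kcnk2, Kcnk9 and Kcnk10 thus lay on the higher side, and Kcnk1 on the lower side, in both comparisons.

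Across the divisions, LHb minus Sol gave 4 higher and 3 lower, with 25.3% of all genes called, 11% higher and 14.3% lower. Of these 7 calls, Kcnk3 was lost in 11 of 24 alternatives (adjusted p = 0.104 with arrays centred on their median), Kcnk10 in 9 of 25 and Kcnk13 in 8 of 24. LHb minus MVe gave 3 higher and 2 lower, with 26.7% of all genes called, 13.7% higher and 13% lower. MHb minus Sol gave 1 higher and 5 lower, with 38.7% of all genes called, 18.9% higher and 19.8% lower. MHb minus MVe gave 2 higher and 5 lower, with 40.9% of all genes called, 21% higher and 19.9% lower. In MHb minus MVe the Kcnk2 call was lost in 16 of 24 alternatives and changed sign in 1. Kcnk3 was lost there in 6 of 24 and Kcnk10 in 5 of 25. Among the other calls, Kcnk4 in LHb minus MVe was lost in 7 of 24 and Kcnk10 in MHb minus Sol in 4 of 25. In MHb minus Sol the 1 higher gene was Kcnk1. Kcnk1 and Kcnk9 were the genes whose called region differences passed in every alternative fit that was run, 200 of 200 for Kcnk1 and 175 of 175 for Kcnk9. These totals include the choice of probe, which could not change the differences, since each gene had 1 probe.

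**Figure D2:**
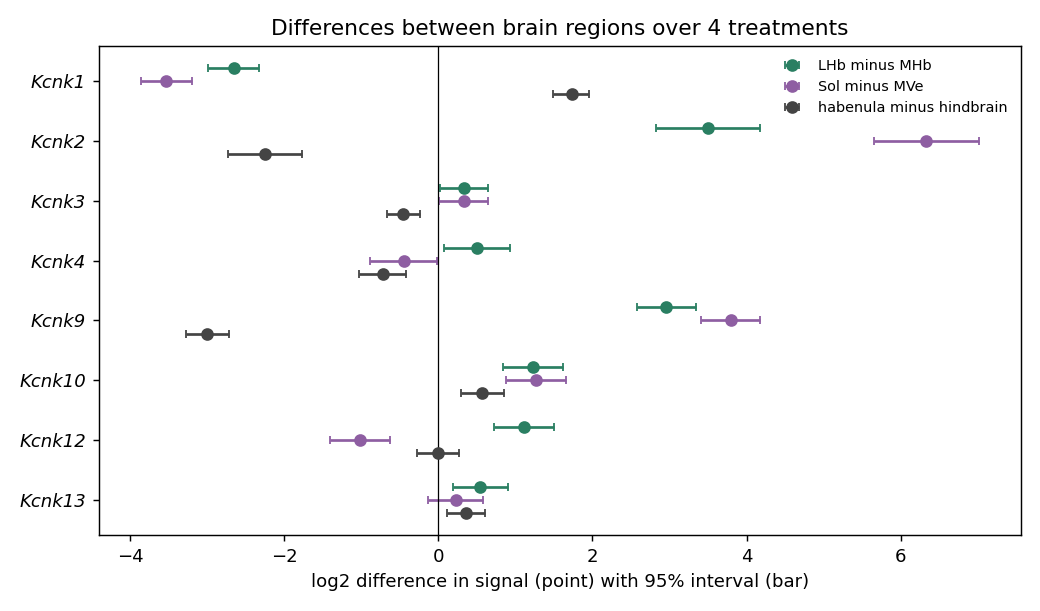
Log2 differences between regions for the 8 genes, one row per gene, in LHb minus MHb, Sol minus MVe and habenula minus hindbrain (colours), with points for the fitted difference and bars for its 95% interval. Kcnk1 lies below 0 and Kcnk2 and Kcnk9 above 0 in both LHb minus MHb and Sol minus MVe, where Kcnk2 reaches 6.33.

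Kcnk2 and Kcnk9 shared part of their regional order with the astrocyte and microglial markers. The median over 7 measured astrocyte markers averaged 16.94 in Sol (16.76 to 17.16 over its 4 arrays), 14.38 in LHb (14.00 to 14.79), 14.30 in MVe (13.82 to 14.66) and 12.96 in MHb (12.51 to 13.50). Sol was highest in the markers and in Kcnk2, but LHb and MVe overlapped in the markers and not in Kcnk2. Kcnk9 was closer to the markers in this respect, since its LHb and MVe arrays also overlapped. Its means were 13.07 in Sol, 9.66 in LHb, 9.27 in MVe and 6.69 in MHb. The markers did not all move together: 6 of the 7 were higher and 1, Aldh1l1 (-1.15, limma adjusted p = 0.000326), was lower in Sol minus MVe. In LHb minus MHb, 6 were higher and 1, Gfap (-0.80, adjusted p = 0.00653), was lower. Of the 8 microglial markers, 8 were called higher in Sol minus MVe with a median of 2.02, and 7 were called higher in LHb minus MVe with a median of 1.09. Their region medians given above thus placed Sol first and LHb second, as for Kcnk2, with MHb and MVe level. Kcnk1 ran the other way at the ends of the scale, highest in MHb and lowest in Sol. The summed level of the 7 markers ran from 19.93 to 20.10 in Sol, 18.68 to 19.18 in LHb, 18.75 to 18.98 in MVe and 17.23 to 17.74 in MHb, as log2 of the sum. Neuronal markers, 9 of 9 measured, had medians averaging 14.68 in MVe, 14.49 in MHb, 14.29 in LHb and 14.20 in Sol, but single markers went strongly both ways. In habenula minus hindbrain 3 were called higher and 5 lower, from Rbfox3 at 1.61 to Gad1, an enzyme of GABA synthesis, at -9.33. Oligodendrocyte markers, 7 of 8 measured, were lowest in Sol (10.15) and reached 14.47 in LHb, 13.86 in MVe and 12.30 in MHb. Choroid plexus markers, 6 of 6 measured, had medians averaging 8.39 in MVe, 6.85 in MHb, 6.15 in Sol and 5.07 in LHb. All 6 were below 0 in LHb minus MHb (median -2.10) and in Sol minus MVe (median -1.96), the direction of Kcnk1. Endothelial markers, 5 of 6 measured, were higher in LHb than in MHb (median 1.28) and lower in Sol than in MVe (median -1.01). The part of cell composition in the regional differences was not tested.

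**Figure D3:**
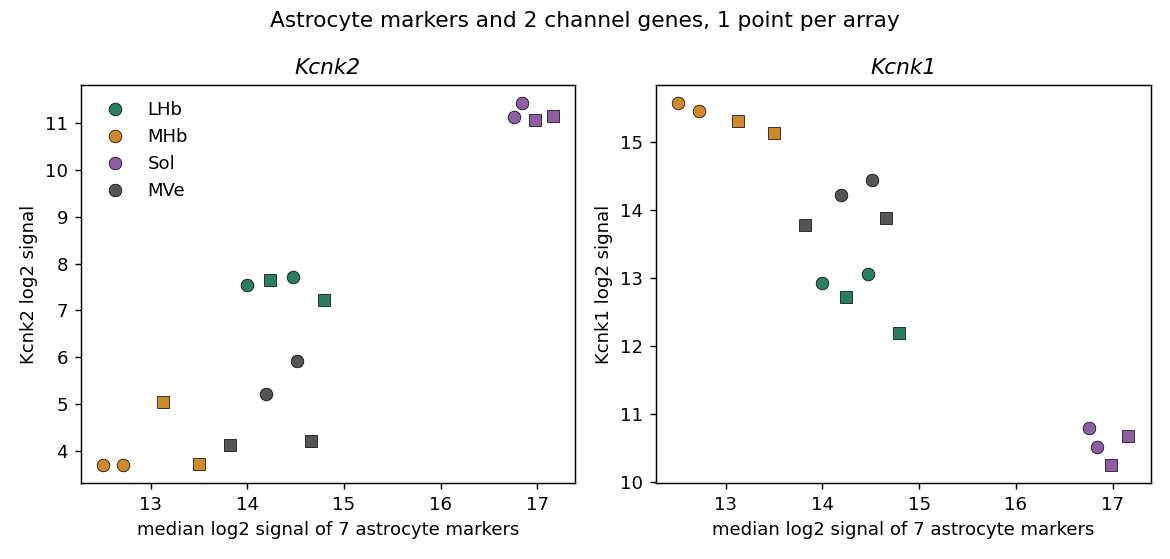
Median log2 signal of the 7 astrocyte markers (horizontal) against Kcnk2 (left) and Kcnk1 (right) log2 signal (vertical), one point per array, coloured by region, with circles for sevoflurane and O2 arrays and squares for propofol and Intralipos arrays. Sol arrays lie apart at 16.76 or more on the marker axis with Kcnk2 at 11.06 or more, while LHb and MVe share a marker range and differ in both genes.

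The genes whose profile over the 16 arrays was most like each member, after the mean of each array set was removed, are given as a description. The arrays of a region share their dissection and cell makeup, and genes with a large regional difference reach high coefficients readily. For Kcnk2 they were Aqp4, the astrocyte water channel (Pearson r = 0.982), Rbm24, an RNA-binding protein (0.977), and Nkain4 (0.976). Aqp4 ranged from 18.29 to 18.54 in Sol and from 17.46 to 17.65 in LHb. It ranged from 17.11 to 17.38 in MVe and from 16.66 to 17.15 in MHb. Sol was first and LHb second, as for Kcnk2, with a narrower span, while MVe and MHb overlapped in both genes. Aqp4 also belongs to the astrocyte marker list above. For Kcnk1 they were Cplx1, the presynaptic protein complexin 1 (0.988), Mir6323 (0.981) and the methyltransferase Prmt3 (0.975). Cplx1 ran from 18.33 to 18.66 in MHb, 16.05 to 16.79 in MVe, 15.20 to 15.47 in LHb and 11.76 to 12.10 in Sol.

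For Kcnk9 the most similar genes were Sesn3, a stress-induced sestrin (0.989), the orphan receptor Gpr176 (0.989) and the adhesion adaptor Lims1 (0.986). For Kcnk10 they were Kcnh1, a voltage-gated potassium channel (0.976), Ptprz1 (0.951) and the growth factor Fgf2 (0.941). Kcnk12 was closest to Nostrin (0.917), Rapgef5 (0.913) and Calb2, the calcium buffer calretinin (0.907). Kcnk4 was closest to Mast2 (0.94), Grin2d, an NMDA receptor subunit (0.932), and Slc16a6 (0.923), and Kcnk3 to Nde1 (0.943), Fam234a (0.931) and Sytl4 (0.929). The coefficients of Kcnk13 were the lowest, with Lyve1 (0.87), Ptk2b (0.844) and Fgf2 (0.834).

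Against these regional differences, neither anesthetic moved any of the 8 genes past the threshold. In sevoflurane minus O2, 0 of the 8 were called, and 0% of all genes were (limma, adjusted p under 0.05), while 4.99% of genes had an unadjusted p under 0.05, none of them a member. In propofol minus Intralipos, 0 of the 8 were called, against 0.02% of all genes, which is 3 genes, and 6.92% of genes had an unadjusted p under 0.05, again with no member among them. In these fits the 4 regions stand in for replicates. Regions of a treatment may share rats, which would make the p-values too small.

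Under sevoflurane, Kcnk1 was below O2 in 4 of 4 regions, with pair differences of -0.13 for LHb, -0.13 for MHb, -0.27 for Sol and -0.22 for MVe on the log2 scale. The fitted difference was -0.19 ± 0.16, with a 95% interval of -0.52 to 0.14 (adjusted p = 0.989). Kcnk12 stood at -0.31 ± 0.18 (-0.70 to 0.08) and was above O2 in 1 of 4 regions. Kcnk4 had the lowest unadjusted p of the 8, 0.0749, with 0.39 ± 0.20 (-0.04 to 0.82, adjusted p = 0.982) and a level above O2 in 3 of 4 regions. For Kcnk2, which volatile anesthetics open, the difference was -0.15 ± 0.32 (-0.83 to 0.53) and above O2 in 1 of 4 regions; the interval takes in a difference of either sign. Kcnk3 stood at -0.19 ± 0.15, Kcnk9 at -0.06 ± 0.18, Kcnk10 at -0.13 ± 0.19 and Kcnk13 at 0.01 ± 0.17. The median of the 8 was -0.14 with 2 above 0, beside 0.01 for all genes.

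Under propofol, the differences from Intralipos were similarly small. Kcnk2 came to 0.39 ± 0.32 (-0.29 to 1.07), Kcnk9 to 0.29 ± 0.18 (-0.10 to 0.67) and Kcnk13 to -0.27 ± 0.17 (-0.62 to 0.09). The other 5 lay between -0.10 and 0.12, and adjusted p-values ran from 0.817 to 0.975. Without the propofol array of MHb, the Kcnk2 value was -0.03. The median of the 8 was -0.01, with 4 above 0, beside 0.01 for all genes. Along with this comparison, 6 of 6 choroid plexus markers were above Intralipos, with a median of 0.79, and 0 of 7 astrocyte markers, with a median of -0.16; their part in the values above was not tested.

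**Figure D4:**
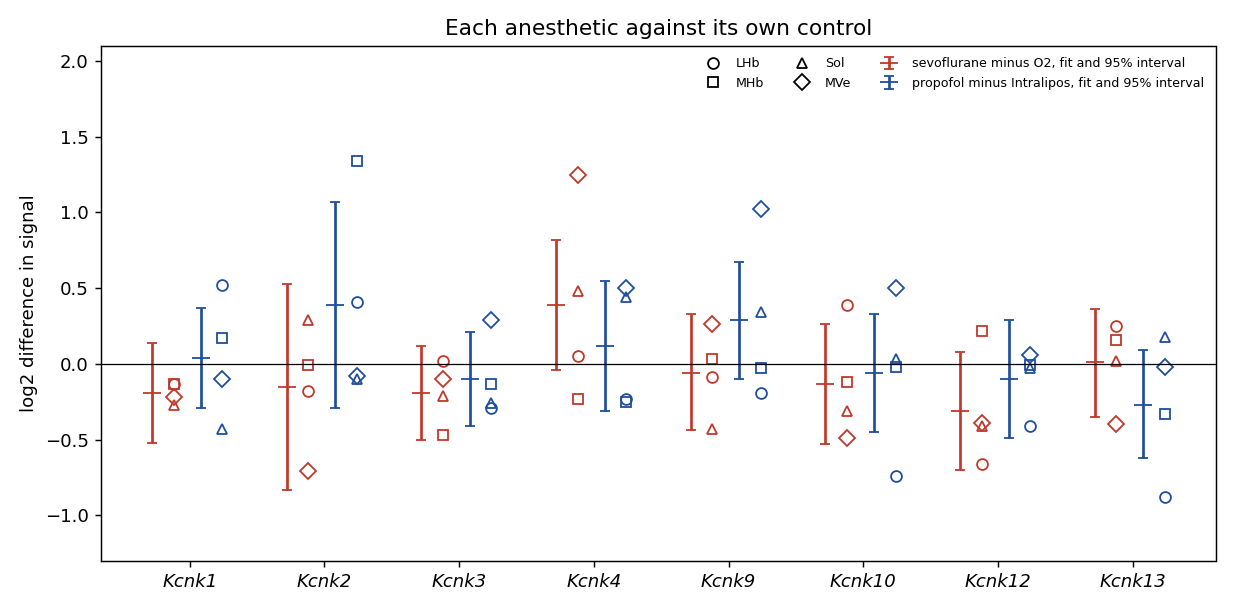
Log2 difference of each anesthetic from its own control for the 8 genes along the horizontal axis, sevoflurane minus O2 in red and propofol minus Intralipos in blue, with open marks for the 4 regions and a dash with a bar for the fitted value and its 95% interval. The interval takes in 0 for all 8 genes under both anesthetics.

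The sevoflurane and propofol effects, each against its own control, were also set against each other. None of the 8 genes differed past the threshold, where 0.0133% of all genes did and 5.01% had an unadjusted p under 0.05, and adjusted p-values lay between 0.994 and 1. The widest value was Kcnk2 at -0.54 ± 0.46 (-1.51 to 0.42), followed by Kcnk9 at -0.34 ± 0.26. Kcnk4 was the gene whose difference pointed the same way in 4 of 4 regions, at 0.27 ± 0.29.

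Kcnk4 also had the largest difference between habenula and hindbrain in its response to sevoflurane. It was above its control in the hindbrain nuclei under both anesthetics. In MVe it read 7.25 with sevoflurane against 6.01 with O2, and 6.22 with propofol against 5.72 with Intralipos. In Sol it read 6.32 with sevoflurane against 5.84 with O2, and 5.85 with propofol against 5.41 with Intralipos. In the habenula the differences were 0.05 in LHb and -0.23 in MHb for sevoflurane, and -0.23 in LHb and -0.25 in MHb for propofol. The interaction of effect and division was -0.96 ± 0.30 for sevoflurane (habenula minus hindbrain, -1.61 to -0.30; unadjusted p = 0.0074, limma adjusted p = 0.866; -0.64 without the sevoflurane array of MVe) and -0.71 ± 0.30 for propofol (unadjusted p = 0.0357, adjusted p = 0.918). Neither passed over all genes, of which 0% did for either anesthetic, and 5.34% and 5.43% had an unadjusted p under 0.05. Most Kcnk4 values lay below the yardstick of background.

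For the propofol effect, Kcnk9 (-0.79 ± 0.33, unadjusted p = 0.0312) and Kcnk13 (-0.69 ± 0.29, unadjusted p = 0.0351) also had an unadjusted p under 0.05 in that interaction, each with an adjusted p of 0.918. The Kcnk9 pair farthest from 0 was that of MVe, where propofol gave 9.66 against 8.64 with Intralipos. Kcnk1 was at 0.62 ± 0.29 (unadjusted p = 0.0513).

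Single pairs of arrays, 1 per group and so with no test, differed by 1 or more on the log2 scale for 3 members. Kcnk4 in MVe was higher with sevoflurane by 1.25, in a pair where 3.6% of all genes passed 1. Kcnk2 in MHb was higher with propofol by 1.34, with 5.04 against 3.71 for Intralipos, where 2.17% of genes passed 1; both values lay in the background range. Kcnk9 in MVe was higher with propofol by 1.02, where 1.7% did. No member passed 1 in the other 5 pairs, in which 1.03% (LHb), 1.48% (MHb) and 1.38% (Sol) of all genes did with sevoflurane and 1.56% (LHb) and 2.51% (Sol) with propofol. In the propofol pair of MVe, 6 of 6 choroid plexus markers were higher with a median of 1.26, and 8 of 9 neuronal markers with 0.32. In the sevoflurane pair of MVe 8 of 9 neuronal markers were higher, with a median of 0.43. Of 7 astrocyte markers, 1 was higher in either MVe pair. In the propofol pair of MHb, 7 of 7 oligodendrocyte markers were higher, with a median of 0.24. There 4 of 6 choroid plexus markers were higher, with a median of 0.37. What part these shifts had in the single pairs was not tested.

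Of the other two-pore channel genes, 5 had a named probe: Kcnk5, Kcnk6, Kcnk15, Kcnk16 and Kcnk18. None passed the yardstick of background in any of the 16 arrays. By region, Kcnk5 ran from 3.58 to 4.21 in LHb, 3.67 to 4.38 in MHb, 3.88 to 4.56 in Sol and 4.23 to 4.65 in MVe. Kcnk6 ran from 3.02 to 3.54 over all regions, Kcnk15 from 3.53 to 4.25, Kcnk16 from 4.24 to 5.89 and Kcnk18 from 3.73 to 5.10. Kcnk5, a TASK-2 channel, was lower in habenula than in hindbrain by -0.38 ± 0.13 (limma, adjusted p = 0.03), and it was the single call among these 5 genes over all region and anesthetic comparisons. Kcnk7 and Kcnk17 were not analysed here.

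Proteins that bind, traffic or regulate two-pore channels were followed through a list of 18 genes, of which 16 were measured. In habenula minus hindbrain, 3 were higher and 10 lower, with a median of -0.52, where 18.3% of all genes were higher and 19.8% lower. The lower ones included S100a10, a binding partner of TASK-1 that affects its transport (-3.71 ± 0.21, limma adjusted p = 5.45e-11), Plcb1, the phospholipase through which Gq-coupled receptors close TASK and TREK channels (-2.01 ± 0.13, adjusted p = 3.04e-10), and the anchoring protein Akap5, which binds TREK-1 (-1.64 ± 0.11, adjusted p = 9.69e-10). The higher ones were Psd, an exchange factor for Arf6 (0.73 ± 0.18, adjusted p = 0.00287), the coatomer subunit Copb1 (0.65 ± 0.10, adjusted p = 3.03e-05) and the 14-3-3 gene Ywhaz (0.61 ± 0.09, adjusted p = 2.81e-05). Single nuclei departed from this division for Plcb1 and Psd, and for Sort1, Pld2, Gnaq and Gna11, which were also called lower. LHb was above Sol in mean for Sort1 (13.16 against 12.5). It was above MVe for Pld2 (7.46 against 6.97) and Gnaq (12.53 against 12.3). MHb was level with MVe for Gna11 (11.65 against 11.57). Plcb1 averaged 8.8 in LHb and 5.09 in MHb, against 9.58 in Sol and 8.32 in MVe. Psd averaged 8.45 in LHb and 9.12 in MHb, against 9.05 in Sol and 7.06 in MVe. The MHb means of S100a10 (4.61), Plcb1 (5.09) and Akap5 (5.08) lay in the background range, and S100a10 averaged 5.79 in LHb. For these genes the differences set no ratio of RNA. Neither anesthetic gave a call in this list, where 0% of all genes were called for sevoflurane and 0.02% for propofol, with medians of 0.02 for sevoflurane and 0.04 for propofol.

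Other carriers of resting current were followed through 9 measured genes of 12. In habenula minus hindbrain, 2 were higher and 4 lower, with a median of 0.15, beside the same 18.3% and 19.8% of all genes. The inward rectifiers Kcnj16 (-3.93 ± 0.16, limma adjusted p = 6.06e-13) and Kcnj10 (-3.36 ± 0.15, adjusted p = 1.92e-12), which pair in astrocytes and in brainstem, were lower in the habenula. Kcnj2 was also called lower (-0.98 ± 0.17, adjusted p = 0.000176), but its means in LHb (6.03) and MVe (6.01) were level. It averaged 5.27 in MHb, in the background range, and 7.24 in Sol. Kcnj12, a strong inward rectifier (2.03 ± 0.15, adjusted p = 4.93e-09), and Kcnj6, a G protein-gated rectifier (1.78 ± 0.15, adjusted p = 1.28e-08), were higher in the habenula. Kcnj12 averaged 8.34 in MHb and 6.3 in LHb. Its means in Sol (5.1) and MVe (5.46) lay in the background range, so its difference sets no ratio of RNA. No gene of this list was called for either anesthetic, beside 0% of all genes for sevoflurane and 0.02% for propofol, with medians of -0.12 for sevoflurane and -0.10 for propofol.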

How the data were processed

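RNA from 16 laser-dissected samples was hybridised to 1-colour Affymetrix arrays, 1 per region and treatment, from 100 ng of RNA per the labels' protocols. The authors deposited log2 signals, for which the submitters' processing notes name Affymetrix Expression Console 1.3.0. The log2 scale was read from the values (2.47 to 19.93), and neither the summarisation method nor a build is given in the sources used here. Of 24834 probes, 1646 are controls, 15049 have 1 gene symbol and 8139 none. For each of 15037 genes the brightest probe was kept, dim genes included, and the values were not normalised again. The number of arrays limits the precision.

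limma 3.58.1 in R 4.3.3 (lmFit, eBayes) was fitted to the log2 values of all 16 arrays with treatment and region as terms (9 residual degrees of freedom), or with an added interaction of treatment and division (6). Tests were two-sided, with Benjamini-Hochberg adjustment over all genes at 0.05, and ± is the moderated standard error unless SD is named. The code was tested on simulated data. Members, lists, markers and the rule for named genes (all members; the 3 largest called differences each way in a list; the 3 most correlated genes) were chosen with earlier results of these data known. Region numbers pair the samples of different treatments by design, so region is a term of the fit.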

Additional observations from a re-analysis of the deposited data

Results flagged for a closer look

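Dixon's test was applied to each of 48 groups of 4 arrays of 1 gene (levels over the treatments of a region, or differences over the regions), and 2 stood out, where chance gives about 1 in 20. The level of Kcnk2 in MHb on the propofol array was 5.04, while the next array was at 3.71 and the lowest at 3.69. The level of Kcnk12 in MHb on the O2 array was 5.27, with the next at 5.46 and the highest at 5.49. All of these values lie within the range of the negative-control probes.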

How the results depend on the processing

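Alternatives covered the choice of probe, the features tested, normalization, a filter on dim genes, the variance model, the region term, subsets of arrays and leaving out each array. Each member had 1 probe, so the choice of probe could not change its log2 differences. Nor could the features tested, the filter on dim genes or the variance model, which alter only its p-values. None of the 577 member values for an anesthetic passed the threshold (lowest adjusted p = 0.662) and 20 changed sign; none of the 342 interaction values did (lowest 0.399), and 12 changed sign. Of 1560 region values, 101 lost their call, 4 gained one and 16 changed sign. Leaving out single arrays gave differing signs, as ranges, for sevoflurane minus O2 of Kcnk2 (-0.40 to 0.22), Kcnk9 (-0.15 to 0.06) and Kcnk13 (-0.05 to 0.12), and for propofol minus Intralipos of Kcnk1 (-0.10 to 0.19), Kcnk2 (-0.03 to 0.74), Kcnk10 (-0.20 to 0.14) and Kcnk12 (-0.21 to 0.07). It did so for the difference of both effects of Kcnk3 (-0.16 to 0.02) and Kcnk10 (-0.28 to 0.06), and for habenula minus hindbrain in the sevoflurane effect of Kcnk2 (-0.62 to 0.86), Kcnk3 (-0.30 to 0.16), Kcnk9 (-0.19 to 0.31) and Kcnk12 (-0.29 to 0.65) and in the propofol effect of Kcnk12 (-0.54 to 0.08). Among regions it did so for LHb minus MVe of Kcnk12 (-0.13 to 0.21) and MHb minus Sol of Kcnk12 (-0.17 to 0.09) and Kcnk13 (-0.12 to 0.08). Quantile normalization gave -0.01 for Kcnk1 under propofol and 0.07 for Kcnk12 in MHb minus Sol. Centring arrays on their median gave 0.15 for Kcnk12 and 0.18 for Kcnk13 in MHb minus Sol, and -0.05 for Kcnk13 under sevoflurane. By subset of arrays, MHb minus Sol was 0.11 for Kcnk12 in sevoflurane and O2 arrays, and for Kcnk13 0.03 in propofol and Intralipos arrays and 0.07 in O2 and Intralipos arrays. In propofol and Intralipos arrays LHb minus MVe of Kcnk12 was -0.11 and MHb minus MVe of Kcnk2 was 0.20, and in O2 and Intralipos arrays LHb minus Sol of Kcnk4 was 0.03. The causes were not tested.

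Counts of genes called were 0 for sevoflurane, 3 for propofol and 2 for the difference of effects. With trend and robust variance they were 2 for sevoflurane and 4 for the difference. The difference had 1 over all probes and 1 with a block of region nested in array set. Without the replicate block, which here is the region term, propofol and the difference each had 0, and no member value was called. Propofol had 1 in its 8 arrays alone. Leaving out single arrays gave 0 to 8, 0 to 5 and 0 to 4 for the 3 comparisons, 0 to 1 for the sevoflurane interaction and 0 to 0 for that of propofol. For regions it gave 5326 to 5568 in habenula minus hindbrain (5736 with all arrays), 3739 to 4386 in LHb minus MHb (4289), 4671 to 5324 in Sol minus MVe (5300), 3145 to 3928 in LHb minus Sol (3804), 3431 to 4064 in LHb minus MVe (4019), 5194 to 5909 in MHb minus Sol (5820), 5567 to 6181 in MHb minus MVe (6156) and 7639 to 7986 over the 4 regions (8139). Fits on 8 arrays called fewer. With propofol and Intralipos arrays the counts were 3552, 2714, 3233, 1821, 2248 and 3821 for the first 6 of these contrasts in that order, and with O2 and Intralipos arrays 3547, 2466, 3035, 1631, 2012 and 3738, with 5304 over the 4 regions. LHb minus MHb had 2721 in sevoflurane and O2 arrays. Kcnk4 in Sol minus MVe, not called with all arrays, passed after quantile normalization (-0.54, limma adjusted p = 0.0483) and median centring (-0.60, adjusted p = 0.0242). It also passed without the O2 array of MVe (-0.63, limma adjusted p = 0.0246). In LHb minus MHb, Kcnk4 passed without the O2 array of MHb (0.67, limma adjusted p = 0.0256). Levels near the negative-control probes limit Kcnk3, Kcnk4 and Kcnk13, Kcnk2 in MHb and MVe, and Kcnk12 in MHb and Sol.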
